A study of Rattus norvegicus with 4 samples.

Results

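Prolactin (Prl), the growth hormone gene (Gh1) and Pou1f1, the pituitary transcription factor also called Pit-1, were followed in MMQ cells, a clonal rat pituitary tumour line that secretes prolactin. They are 3 of the 33832 gene IDs in the deposited table and were taken by ID, with earlier results of these data known: ENSRNOG00000017374 for Prl, ENSRNOG00000000715 for Pou1f1 and ENSRNOG00000011207 for Gh1. All cells grew in DMEM/F12 medium with 2.5% fetal bovine serum and 15% horse serum. The 4 groups were vehicle (DMSO) for 12 h, vehicle for 24 h, UNC9994 at 15 µM for 12 h and UNC9994 at 15 µM for 24 h, each with 1 library of polyadenylated RNA. UNC9994 binds the dopamine D2 receptor, is called an agonist in the title of the series and is known for favouring beta-arrestin over G protein signalling. The labels do not say whether the 4 cultures were grown or sequenced together, and a treated library and its vehicle library could therefore differ by culture as well as by drug. A single cell line stands for the lactotroph here, and bulk RNA cannot separate fewer producing cells from less RNA per cell.

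Lactotrophs are the prolactin cells of the anterior pituitary. Their identity depends on Pou1f1, a POU-homeodomain protein that binds the promoters of the prolactin, growth hormone and thyrotropin beta genes, and Pou1f1 also marks the somatotrophs, which make growth hormone, and the thyrotrophs. Dopamine from the hypothalamus restrains lactotrophs through the D2 receptor, which couples to inhibitory G proteins, lowers cyclic AMP and reduces both release of the hormone and transcription of its gene.

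The regulatory sequence at the start of Prl is shown because the promoter of this gene is where Pou1f1 is known to bind. The window is chr17:38298168-38298467 on the minus strand of the GRCr8 assembly, from RefSeq, and is written along the gene's own strand. The deposited values were made on another build, Rnor_6.0, so the coordinates do not apply to them. Capitals mark the single match to TATNCAT, the core that Pou1f1 is known to prefer, searched on both strands. No other motif was searched.
Prl promoter window: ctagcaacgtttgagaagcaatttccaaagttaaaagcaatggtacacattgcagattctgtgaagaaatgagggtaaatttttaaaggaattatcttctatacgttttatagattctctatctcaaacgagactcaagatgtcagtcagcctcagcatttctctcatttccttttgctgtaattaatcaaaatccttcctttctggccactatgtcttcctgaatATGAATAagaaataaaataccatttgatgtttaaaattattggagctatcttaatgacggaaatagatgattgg
The match read on the opposite strand, as ATGAATA, at bases 227 to 233 of the 300. Of the 33469 promoter windows of this length, 9.88% held the motif on either strand. The Prl window was rich in A and T (67% of its bases, against a median of 48.3%). Of the 994 windows at least as rich in A and T, 40.4% held the motif. The match is given as a description of letters; binding was not measured here. Pou1f1 and Gh1 had no entry in the promoter table.

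Depth was 17433867 to 21728374 reads a library, recovered from the steps of the deposited FPKM. These are fragments divided by the length of the gene model in kilobases and by a divisor for each library. The divisors were not the totals of recovered reads, which were 95.6% to 99.6% of them. Between 17714 and 18334 IDs were above 0 in a library. The files pair no ID with a gene name, so the other 176 of 179 genes in the lists drawn up for pituitary hormones, lineage factors, prolactin regulators, secretory granules and other cell types are not analysed here. The lactotroph label could therefore be checked only on the 3 genes themselves.

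The hormone gene came first in every library. Prl stood at 27721 FPKM in DMSO at 12 h, 27927 in DMSO at 24 h, 21469 in UNC9994 at 12 h and 24535 in UNC9994 at 24 h, and was rank 1 of all IDs in all 4. The ID at rank 2 was the same in every library. Prl stood 1.95-fold above it in DMSO at 12 h, 2.001-fold in DMSO at 24 h, 1.63-fold in UNC9994 at 12 h and 1.70-fold in UNC9994 at 24 h. The vehicle libraries lay close together. Both treated libraries lay below both of them, as for 29.5% of the 14056 tested IDs (at least 10 reads in at least 2 libraries). The treated library at 12 h was lowest.

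As a share of all recovered reads, Prl held 2.77% (552709 reads, 95% exact binomial interval 2.77 to 2.78) in DMSO at 12 h and 2.83% (494024 reads, 2.83 to 2.84) in DMSO at 24 h. It held 2.24% (485960 reads, 2.23 to 2.24) in UNC9994 at 12 h and 2.48% (525038 reads, 2.47 to 2.48) in UNC9994 at 24 h. These intervals cover counting error only and say nothing of the spread between cultures. Prl thus remained above 2% of the messenger RNA reads under the drug, and no other ID displaced it from the first place.

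**Figure D1:**
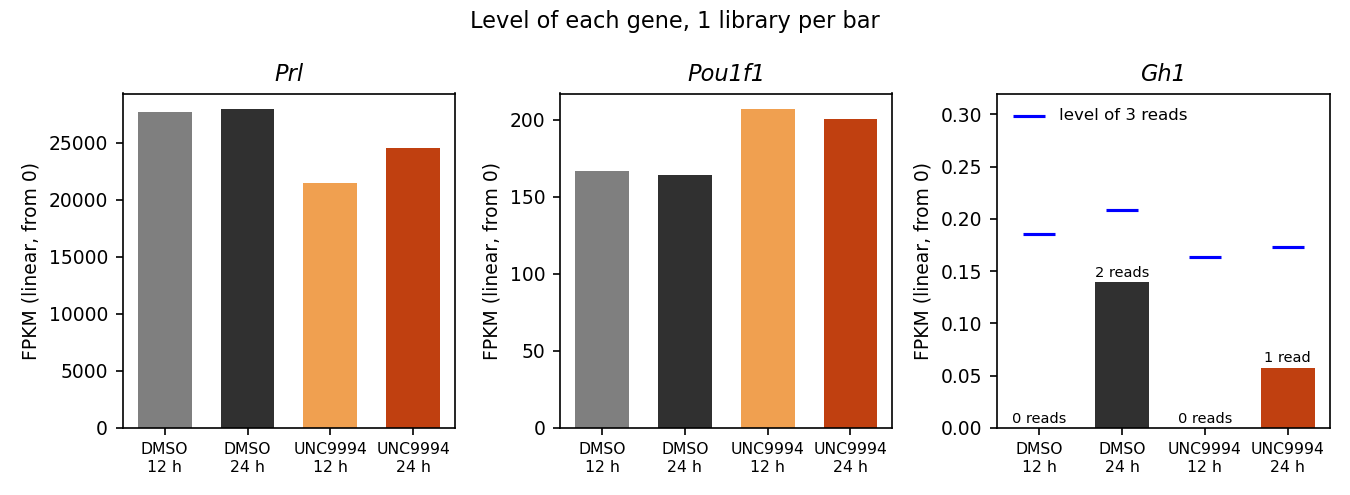
FPKM (linear axes from 0) of Prl, Pou1f1 and Gh1 in each of the 4 libraries, 1 library a bar, with the level that 3 reads would give as a blue line for Gh1. Prl was lower in both UNC9994 libraries, Pou1f1 was higher in both, and Gh1 stayed at 0 to 2 reads.

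With UNC9994, Prl was 22.6% lower than in vehicle at 12 h (ratio 0.774, 95% counting interval 0.771 to 0.777) and 12.1% lower at 24 h (ratio 0.879, 0.875 to 0.882). In deposited FPKM, the vehicle libraries differed from each other by 0.744% (ratio of 24 h to 12 h 1.007, 1.004 to 1.011). The treated libraries differed by more, with a ratio of 24 h to 12 h of 1.14 (1.14 to 1.15), so that the gap to vehicle was narrower at 24 h than at 12 h. The size of this narrowing depended on scaling. Scaled to total recovered reads, the ratio to vehicle was 0.807 at 12 h and 0.874 at 24 h, a smaller narrowing. On either scale it rests on 1 library at each point and could not be tested.

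The size of the Prl difference was modest on a ratio scale and the largest of all IDs on the scale of FPKM. Prl was lower by 6252 FPKM between the 12 h libraries and by 3392 FPKM between the 24 h libraries, rank 1 among all IDs at both times. The next largest difference, in another ID, was 2432 FPKM higher at 12 h and 3169 FPKM higher at 24 h. On the ratio scale, 1669 of the 10807 IDs compared at 12 h (15.4%) had a lower ratio than Prl, as did 2725 of 10782 (25.3%) at 24 h. Among the 784 abundant IDs, those tested that averaged 100 FPKM or more over the libraries, 13.8% had a lower ratio than Prl at 12 h and 18.8% at 24 h. The median log2 ratio of these abundant IDs was -0.10 at 12 h and 0.012 at 24 h. Prl, the ID with the highest FPKM, thus showed the largest difference in FPKM without standing at the edge of the ratios. FPKM is divided by the length of the gene model, and differences in reads were not ranked.

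**Figure D2:**
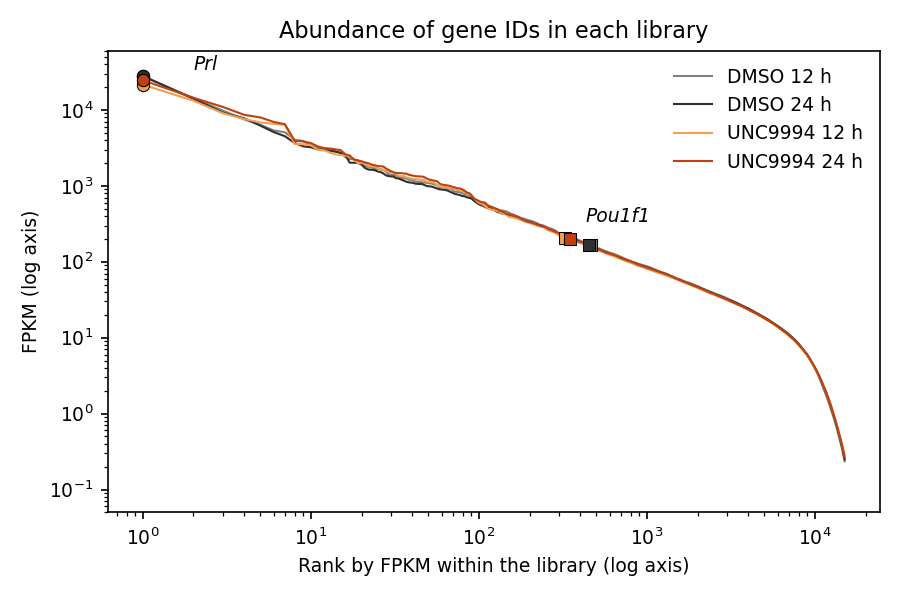
FPKM (log axis) against rank by FPKM within each library (log axis), 1 line a library, with circles for Prl and squares for Pou1f1. Prl was at rank 1 in all 4 libraries, and Pou1f1 lay between ranks 324 and 462 on nearly identical curves.

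Pou1f1, the factor that activates the prolactin gene in lactotrophs, differed from vehicle in the opposite direction. It stood at 167 FPKM in DMSO at 12 h (7876 reads), 164 in DMSO at 24 h (6874 reads), 207 in UNC9994 at 12 h (11074 reads) and 201 in UNC9994 at 24 h (10165 reads). Both treated libraries lay above both vehicle libraries, as for 28.9% of the 14056 tested IDs. Within each treatment the times were close together. Its rank by FPKM was 462 and 451 in the vehicle libraries at 12 h and 24 h and 324 and 350 in the treated ones. Its share of reads was 0.0395% (0.0386 to 0.0404) and 0.0394% (0.0385 to 0.0404) in vehicle at 12 h and 24 h, and 0.0510% (0.05002 to 0.0519) and 0.0480% (0.0470 to 0.0489) with UNC9994.

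Pou1f1 was 23.9% higher with UNC9994 at 12 h (ratio 1.24, 95% counting interval 1.20 to 1.27) and 22.2% higher at 24 h (1.22, 1.19 to 1.26). The ratio of 24 h to 12 h was 0.984 in vehicle (0.952 to 1.02) and 0.971 with UNC9994 (0.945 to 0.998). On the deposited scale, the difference from vehicle was therefore of nearly the same size at both times, and the differences between times were much smaller. Scaled to total recovered reads, the ratio of UNC9994 to DMSO was 1.29 at 12 h and 1.22 at 24 h. At 12 h 1756 of 10807 IDs (16.2%) had a higher ratio than Pou1f1, and at 24 h 1732 of 10782 (16.1%). Among the 784 abundant IDs, 7.78% had a higher ratio than Pou1f1 at 12 h and 20.7% at 24 h.

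**Figure D3:**
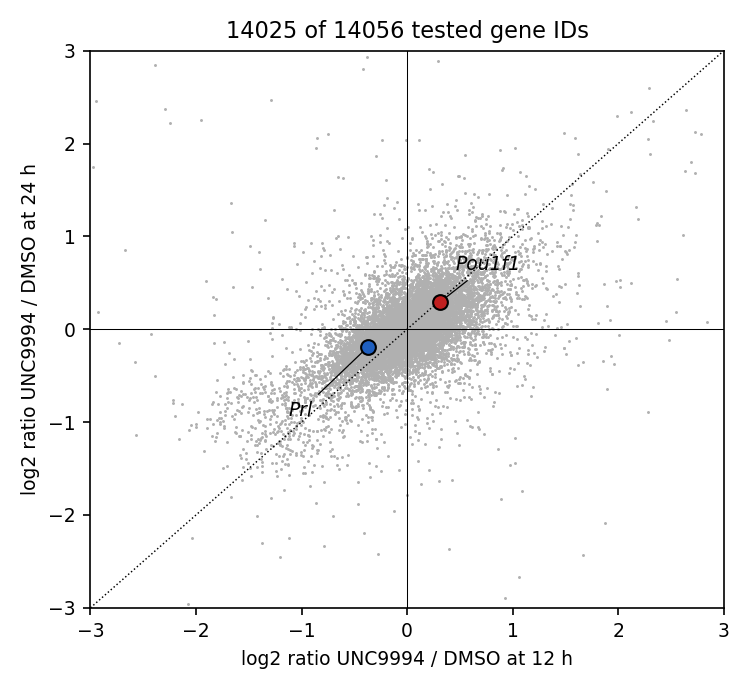
Log2 ratio of UNC9994 to DMSO at 12 h (x axis) and at 24 h (y axis), from FPKM + 0.5, for the 14025 of 14056 tested IDs that lie within 3 on both axes, with Prl in blue, Pou1f1 in red and equal ratios dotted. Prl lies at -0.37 and -0.19, above the dotted line, and Pou1f1 at 0.31 and 0.29, almost on it, both inside the cloud of IDs.

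Since FPKM is per length of gene model, the levels of hormone and factor can be set against each other within a library. Prl was 166 times as abundant as Pou1f1 in DMSO at 12 h (95% counting interval 162 to 170) and 170.0 times (166 to 174) in DMSO at 24 h. The ratio was 104 (102 to 106) in UNC9994 at 12 h and 122 (120 to 125) in UNC9994 at 24 h. It was 37.5% lower with the drug at 12 h and 28.1% lower at 24 h. This within-library ratio does not depend on how libraries were scaled to each other. Both treated libraries were below both vehicle libraries. That order follows from Prl being lower and Pou1f1 higher in both treated libraries, and is not a further result. Of the tested IDs, 29.5% were lower in both treated libraries, as Prl was, and 28.9% higher, as Pou1f1 was.

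**Figure D4:**
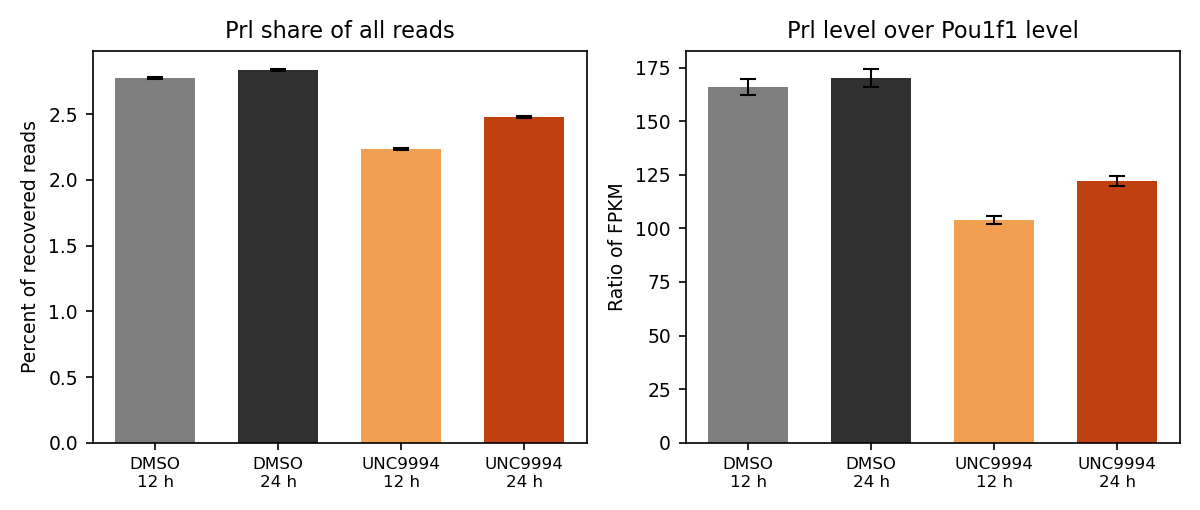
Left, share of all recovered reads held by Prl in percent; right, ratio of the FPKM of Prl to that of Pou1f1; 1 library a bar, error bars are 95% counting intervals. The ratio was 166 and 170.0 in the vehicle libraries and 104 and 122 in the treated ones.

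Gh1, the hormone gene of the neighbouring somatotroph lineage, was at or under the limit of detection. It had 0 reads in DMSO at 12 h, 2 reads (0.139 FPKM, exact Poisson interval 0.0169 to 0.503) in DMSO at 24 h, 0 reads in UNC9994 at 12 h and 1 read (0.0575 FPKM, 0.00146 to 0.321) in UNC9994 at 24 h. All 4 libraries stayed under 3 reads, a level of 0.163 to 0.209 FPKM, so no fold between treatments is given and any difference was not detectable at this depth. In the libraries with 0 reads, Prl was set against the level that 3 reads of Gh1 would give. It stood 149646-fold above that level in DMSO at 12 h and 131574-fold in UNC9994 at 12 h. Pou1f1 was 901-fold and 1268-fold above that level in the same libraries. The upper Poisson limits of Gh1 there were higher, at 0.228 and 0.201 FPKM, so these folds are not lower limits. Messenger RNA for the factor was thus present at 164 to 207 FPKM beside growth hormone messenger RNA at or near 0, with and without the drug.

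The test of the drug across both times used limma on log2(FPKM + 0.5) with terms for time and treatment, fitted on the 14056 IDs with at least 10 reads in at least 2 libraries. Prl and Pou1f1 entered it and Gh1 did not. Neither of the 2 passed an adjusted p of 0.05, a threshold that 8.57% of the tested IDs passed (3.41% higher and 5.16% lower). That share depended on the fit: the 1204 calls became 0 without the variance trend, 0 without the filter on reads and 1979 with at least 5 CPM in 2 libraries. With the time term dropped, they became 86 without the DMSO 12 h library, 116 without DMSO at 24 h, 443 without UNC9994 at 12 h and 782 without UNC9994 at 24 h. The common log2 fold change of Pou1f1 was 0.30 ± 0.081 (SE, 4 libraries), an interval of 0.096 to 0.50, with an adjusted p of 0.082. That of Prl was -0.28 ± 1.07 (interval -2.95 to 2.40), with an adjusted p of 0.89.

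The error of Prl in this fit was mostly a spread predicted by the fit, not one seen in Prl. The fit draws each gene toward a spread predicted from its abundance, and for Prl that prediction was an SD of 1.18 on the log2 scale, against 0.091 from the 4 Prl values themselves and a median prediction of 0.12 over all tested IDs. For the ID at rank 2 the prediction was 0.79 against its own 0.080. For Pou1f1 the prediction was 0.089 and its own value 0.0094. With 1 library per combination, a gene's own value reflects only how its drug difference at 12 h departs from that at 24 h. It is not a spread between replicate cultures. Without the trend in the predicted spread, the estimate of Prl was -0.28 ± 0.11 (limma adjusted p = 0.22). With limma-voom on the recovered reads, it was -0.25 ± 0.076 (adjusted p = 0.091). That fit weights by read number and also scales libraries to total recovered reads. With the same limma-voom fit Pou1f1 was 0.33 ± 0.071 with an adjusted p of 0.043, the single fit of those run in which it passed. The reported fit with only the scaling changed to total recovered reads gave -0.25 for Prl and 0.32 for Pou1f1 (limma adjusted p = 0.72 and 0.060).

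**Figure D5:**
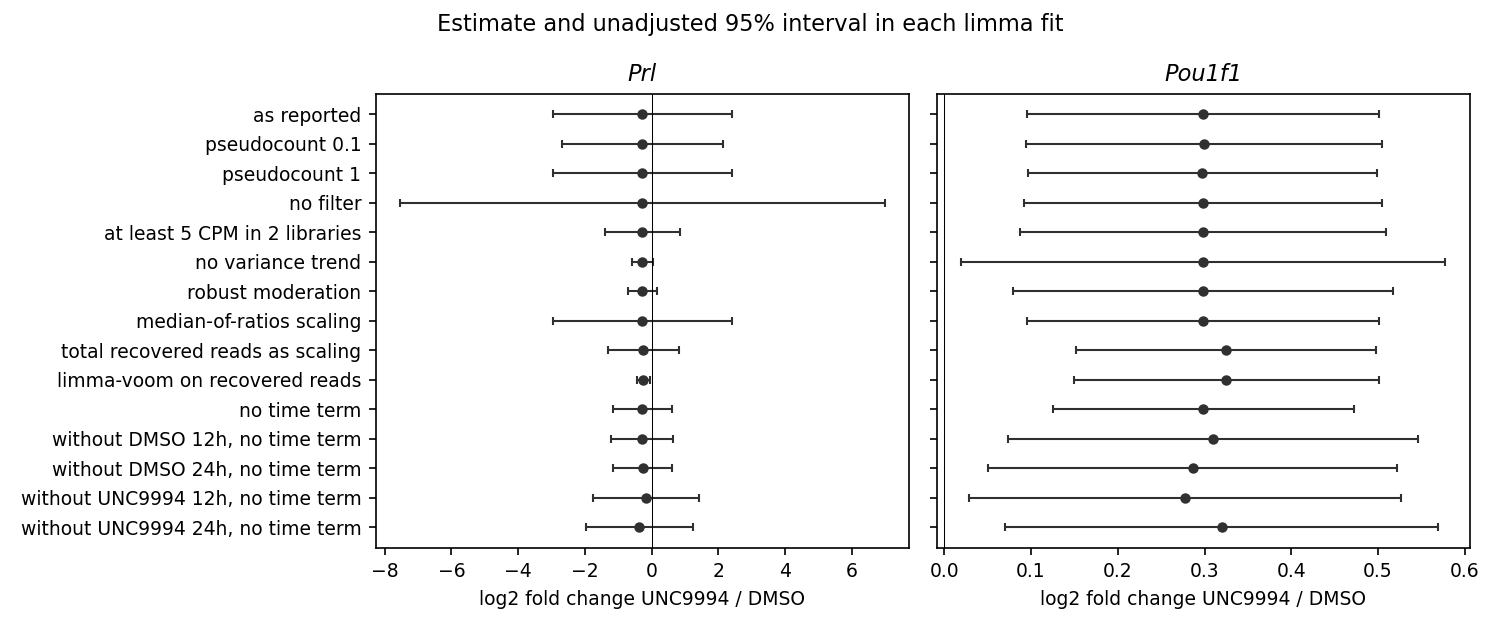
Estimated log2 fold change of UNC9994 against DMSO (x axis, each panel with its own range) with its unadjusted 95% interval in the reported limma fit and 14 alternatives, for Prl (left) and Pou1f1 (right). Every estimate of Prl is below 0 and every one of Pou1f1 above 0, a sign that most of these fits could not change. The width of the Prl interval varied with the fit from a SE of 0.076 to one of 2.50.

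Without a model, the libraries of the 2 treatments did not overlap for either gene. Both UNC9994 libraries were below both DMSO libraries for Prl, as for 29.5% of the tested IDs, and above them for Pou1f1, as for 28.9%, so such an order is common in these 4 libraries. An exact permutation test over the 4 libraries gave p = 0.33 (two-sided) for each gene, the smallest p that 2 against 2 libraries allow. In the pairs of single libraries, neither gene reached a 1.5-fold difference at either time. A 1.5-fold difference was reached at 12 h by 6.13% of IDs upward and 8.1% downward, and at 24 h by 4.78% and 6.17%. A 2-fold difference was reached at 12 h by 1.92% upward and 3.66% downward, and at 24 h by 1.36% and 2.42%.

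Neither gene passed the test for time in culture. Averaged over vehicle and drug, the log2 difference of 24 h from 12 h in the same fit was -0.03 ± 0.081 for Pou1f1 (limma adjusted p = 0.95) and 0.10 ± 1.07 for Prl (limma adjusted p = 0.99). With limma, 0 IDs passed for time (0% of 14056), 1041 had an unadjusted p under 0.05, and limma-voom also called 0.

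Genes with the most similar course over the 4 libraries were found by the Euclidean distance between log2(FPKM + 0.5) profiles, each centred on its own mean, among 7320 other tested IDs that averaged 10 FPKM or more. The closest to Prl were ENSRNOG00000055344, at 20.3 and 20.3 FPKM in vehicle and 15.8 and 17.9 with UNC9994 (12 h and 24 h, distance 0.021), and ENSRNOG00000012690 (distance 0.023). The closest to Pou1f1 were ENSRNOG00000013790, at 42.4 and 41.5 FPKM in vehicle and 53.0 and 51.6 with UNC9994 (distance 0.015), and ENSRNOG00000003625 (distance 0.017). With 4 values a profile is short: 160 IDs lay within 0.1 of Prl and 195 within 0.1 of Pou1f1. The likeness describes these 4 libraries and was not tested.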

How the data were processed

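RNA of MMQ cells was measured in 4 libraries, 1 for each combination of UNC9994 or DMSO with 12 h or 24 h. The deposited values are FPKM, per the file headers; the series table is named as raw counts, which its values are not. The submitters' processing notes name TopHat2 (version 2.0.7), HTSeq, Bowtie2, CASAVA and the Rnor_6.0 build. The role of each tool, the annotation, strand handling and the treatment of reads shared by related genes were not given in the sources used here. Of 35042 rows, 1209 exact repeats and 1 row with a truncated ID, at 0, were removed.

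Read numbers were recovered from the FPKM. Ratios of low FPKM gave the relative divisors of the libraries, and single-read steps gave their size. Each ID was then assigned the shortest gene model, from 40 bases up, at which its 4 read numbers were whole, to within 0.001 reads plus a relative 1e-08. This succeeded for 16009 of 16009 IDs above 0 in all libraries, and for 0 of 500 of them, at or below their own length, after a random disturbance of up to 1%. A common factor of all 4 read numbers of an ID cannot be seen. Totals were 95.6% to 99.6% of the divisors. Median-of-ratios factors computed on the FPKM were all 1.002, so the deposited values already stood on that scale.

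limma (version 3.58.1, R 4.3.3) was run on log2(FPKM + 0.5) with time and treatment terms, the prior variance following abundance, and p-values adjusted by Benjamini-Hochberg over 14056 IDs. It has 1 residual degree of freedom, moderated with 4.48 prior ones. That degree of freedom comes from the difference between the drug effects at 12 h and 24 h. The p-values therefore rest on these 4 libraries only and measure no spread between replicate cultures. Adding 0.5 understates changes of low IDs. Library pairs have no test; IDs with at least 5 CPM in either library of a pair and above 0 in both were compared. The tests had been planned on FPKM and needed no change of unit. The fit and the recovery were tested on simulated data. In the simulation of the fit the dispersion did not depend on abundance, so the large spread predicted for Prl was not covered. Members and lists were chosen with earlier results of these data known. Symbols of the 3 genes come from the rule that chose them. The reference table (47357 genes, assembly GRCr8) gives an Ensembl ID for 0 of them, so the naming rule could be applied only to the members, and the 2 IDs nearest to Prl and to Pou1f1 are printed without names in place of 5 named genes each.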

Additional observations from a re-analysis of the deposited data

How the results depend on the processing

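For each gene, both treated libraries lay on the same side of both vehicle libraries. Changing the pseudocount, filter, variance model or time term, scaling by equal factors, or dropping a library therefore could not change the sign. Scaling to total recovered reads, alone or with limma-voom, could have. With that limit, no estimate of Prl or Pou1f1 for the drug changed sign in 14 alternative fits. Prl ranged from -0.37 to -0.18 (adjusted p 0.091 to 0.96) and passed in 0 of them; Pou1f1 ranged from 0.28 to 0.33 (adjusted p 0.043 to 0.21) and passed in 1, limma-voom, at 0.33. Without a library, each in turn and with no time term, the lone library of a treatment being assumed to vary like the other treatment, Prl lay between -0.37 (without UNC9994 at 24 h) and -0.18 (without UNC9994 at 12 h), and Pou1f1 between 0.28 and 0.32. The number of IDs called for the drug, 1204 as reported, was 0 with no filter on low reads (3795 with an unadjusted p under 0.05), 0 with no variance trend (3660), 1979 with at least 5 CPM in 2 libraries, and 86 to 782 without a library: 86 without DMSO at 12 h, 116 without DMSO at 24 h, 443 without UNC9994 at 12 h and 782 without UNC9994 at 24 h. The cause was not tested. For time, 2 IDs were called with a pseudocount of 0.1, 23 with at least 5 CPM and 5 with robust moderation.

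Scaled to total recovered reads, the ratio of UNC9994 to DMSO was 0.807 for Prl and 1.29 for Pou1f1 at 12 h. At 24 h it was 0.874 for Prl and 1.22 for Pou1f1. Scaled to reads outside the 3 genes, the ratio was 0.802 and 1.28 at 12 h and 0.871 and 1.21 at 24 h, Prl first. Median-of-ratios scaling changed nothing because its factors were equal. As a share of summed FPKM, which discounts gene model length, Prl held 4.84% and 5.04% in DMSO at 12 h and 24 h and 3.91% and 4.25% with UNC9994, and Pou1f1 0.0292%, 0.0297%, 0.0376% and 0.0348% in the same order. The labels give no replicate numbers to pair by; the time term of the reported fit pairs treatments within each time, and without it Prl was -0.28 (adjusted p 0.67) and Pou1f1 0.30 (adjusted p 0.064). Depth limits Gh1, at 3 reads over the 4 libraries.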
